A study of Homo sapiens with 16 samples.

Results

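The receptors for interferons, the kinases that signal from them and a few of their best known regulators were followed in HCT116, a human line established from a colorectal carcinoma, by reading the deposited rows of 10 gene symbols among the 28502 listed. The members, chosen by symbol, were the chains of the interferon-gamma receptor (IFNGR1, IFNGR2) and of the type I interferon receptor (IFNAR1, IFNAR2), the Janus kinases JAK1, JAK2 and TYK2, the transcription factors IRF1 and IRF2, and the inhibitor SOCS3. All 10 were listed in every table and had a mean of at least 1 FPKM (a fragment count scaled by transcript length and library size). The cells had been transfected with small interfering RNA labelled NC, siEZH1 or siUXT and treated with PBS or tumour necrosis factor (TNF), which gave 6 poly(A) RNA-seq libraries, 1 per condition and none repeated. siEZH1 was directed at EZH1, a histone H3 lysine 27 methyltransferase, and siUXT at UXT, a prefoldin-like protein. The sources used here do not give the meaning of NC, the TNF dose or the time of treatment. The 10 chromatin samples of the series were not analysed here. HCT116 is a single cancer line, so the values describe that line only.

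Interferon-gamma binds IFNGR1 and draws in IFNGR2, and the kinases JAK1 and JAK2 carried by these chains then activate STAT transcription factors, which bind DNA at sites called GAS. Type I interferons bind IFNAR2 and IFNAR1, where JAK1 and TYK2 are the kinases. IRF1 is a transcription factor known to be induced both by interferon signalling and by NF-kB, the factor that TNF activates; IRF2 binds the same DNA sites and is known to oppose IRF1 at many genes. SOCS3 is a feedback inhibitor of JAK signalling, best known at receptors that use the gp130 chain.

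Promoter sequence is shown for 3 members picked by their TNF response below. IRF1 and IFNGR2 passed the test as higher under TNF, and SOCS3 was lower in every TNF library but did not pass. Picked in this way, the 3 cannot test a link between motif and response. RefSeq (GRCh38.p14) had a promoter entry for 8 of the 10 members, all except IFNAR2 and IRF2, and the 250 bases before the most upstream start listed for each were searched on both strands. The motifs were the GAS motif TTCNNNGAA, the interferon-stimulated response element (TTTC, any 2 bases, TTTC) and the NF-kB consensus. Capitals mark each match. The IRF1 window is chr5:132490774-132491023 and the SOCS3 window chr17:78360926-78361175, both on the minus strand; for IFNGR2 the 30 bases around its match, chr21:33403304-33403333 on the plus strand, are given, since the RefSeq gene begins upstream of the start listed for it.
IRF1: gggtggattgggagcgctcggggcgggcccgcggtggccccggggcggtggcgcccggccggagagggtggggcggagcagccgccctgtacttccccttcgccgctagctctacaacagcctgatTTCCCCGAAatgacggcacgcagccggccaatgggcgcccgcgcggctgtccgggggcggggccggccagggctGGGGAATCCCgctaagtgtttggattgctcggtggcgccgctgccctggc
IFNGR2: tcccggagcgGGAAAGTCCCgcgcgggggc
SOCS3: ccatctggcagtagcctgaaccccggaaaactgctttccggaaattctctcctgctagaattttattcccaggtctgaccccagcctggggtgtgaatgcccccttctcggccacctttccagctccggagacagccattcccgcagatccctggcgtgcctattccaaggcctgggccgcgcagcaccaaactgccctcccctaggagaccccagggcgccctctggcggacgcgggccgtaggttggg
In IRF1 the GAS match lay 124 to 116 bases before the start and the NF-kB match 50 to 41 bases before it, and both read as a match on either strand. IFNGR2 held an NF-kB match 99 to 90 bases before its listed start, on the opposite strand. No other member searched held a match to any of the 3 motifs in its 250-base window. IFNGR1, IFNAR1 and SOCS3 each have 2 listed starts, JAK1 has 3 and JAK2 has 4. Their other starts were not searched, so a match there is not excluded. Over all 35116 promoter entries, 6.57% held the GAS motif, 3.02% the response element and 5.21% the NF-kB consensus in the same window. A match describes letters and shows neither binding nor use in these cells, which were aligned by the submitters to another build (hg19).

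UXT, given as FPKM under PBS and TNF, was at 62.2 and 59.6 in NC and at 27.7 and 24.6 in siUXT, and EZH1 at 5.45 and 5.12 in NC and at 4.05 and 4.14 in the siEZH1 libraries. The ratios to NC were 0.445 and 0.412 for UXT, and 0.742 and 0.809 for EZH1. Over both treatments neither passed in limma. The log2(FPKM + 1) difference was -1.19 for UXT (Benjamini-Hochberg adjusted p = 0.69) and -0.30 for EZH1 (adjusted p = 0.64). Of 9 colon epithelial markers 8 had a mean of at least 1 FPKM, VIL1 being listed at 0 in all libraries except siEZH1 TNF; the summed FPKM of the 9 was 1771 to 2599 under PBS and 1901 to 2427 under TNF. The summed level was at most 2.68 FPKM for 6 leukocyte markers, 0.257 for 3 endothelial markers and 8.64 for 5 fibroblast markers, and PTPRC, CD3E, CD14 and DCN were listed at 0 in every library. By the spacing of low FPKM values, NC TNF and siEZH1 TNF had 0.719 and 0.720 of the depth of NC PBS and the others 0.951 to 1.02; absolute read depth is not given. The part of depth in the results was not tested. The siUXT PBS library stood apart: 19.8% of the 11845 loci tested were at least 1.5-fold lower there than in NC PBS, against 5.18% for siUXT TNF against NC TNF. Where leaving it out turned the sign of a TNF change printed here or moved it by over 1.5 times, the value without it is also given. In a bulk library, fewer cells expressing a gene and less RNA per cell cannot be told apart.

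Without TNF, the receptor and kinase transcripts were far from uniform. In NC PBS the order was IFNGR2 (23.8 FPKM), JAK1 (21.6), IFNAR2 (20.2), IFNGR1 (19.1), TYK2 (18.0), SOCS3 (9.70), IRF1 (8.62), IFNAR1 (6.62), IRF2 (2.67) and JAK2 (1.12). Over the 3 PBS libraries the ranges of each neighbouring pair from IFNGR2 down to TYK2 overlapped, as did those of SOCS3 with IRF1 and of IRF1 with IFNAR1. IRF2, at 2.46 to 2.67 FPKM, lay below all libraries of IFNAR1 and above all libraries of JAK2, which ran from 0.318 to 1.57. JAK2 was the lowest member in all 6 libraries, and JAK1, the kinase it partners at the interferon-gamma receptor, was 14.1 to 51.2 times higher in FPKM. The values of IFNAR2 were identical to those of IL10RB, the neighbouring receptor gene, and those of JAK1 to the transcript AK128734, so each pair was treated as 1 locus and the IFNAR2 value cannot be given to IFNAR2 alone.

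**Figure D1:**
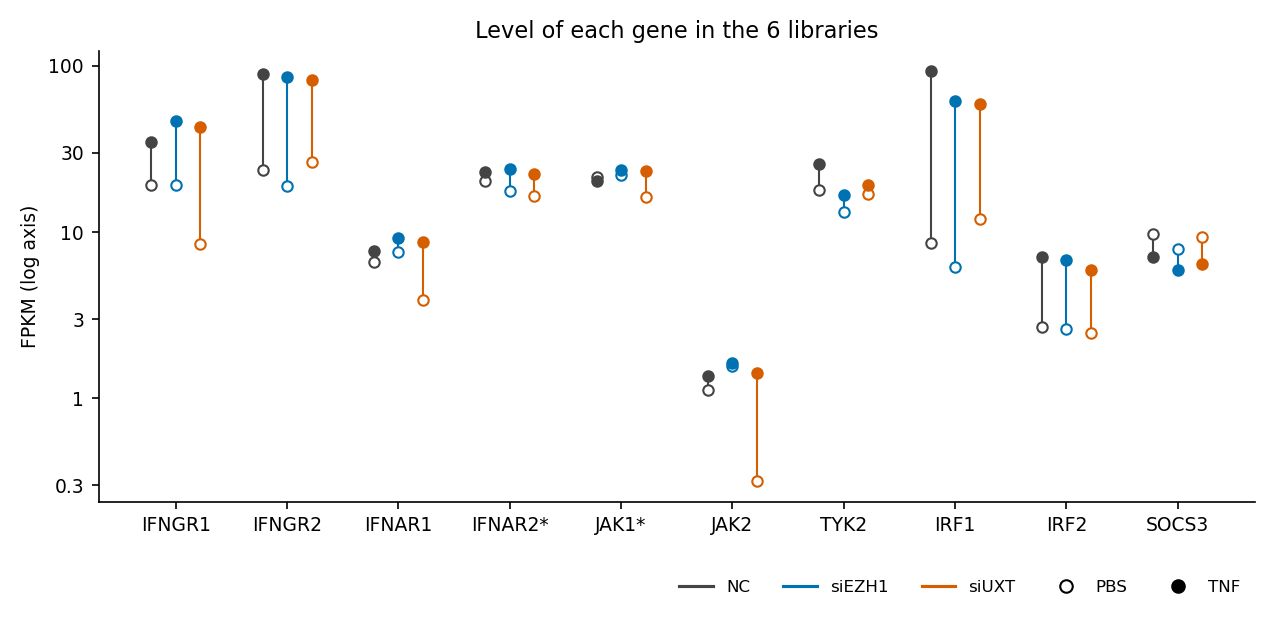
FPKM (log axis) of the 10 genes in the 6 libraries, with open circles for PBS, filled circles for TNF and a line joining the pair of each transfection; asterisks mark loci that share their values with another symbol. IRF1 went from 6.16 to 11.9 FPKM under PBS to 58.7 to 92.8 under TNF, whereas SOCS3 was lower in each TNF library than in any PBS library.

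Under TNF, IRF1 and the interferon-gamma receptor chain IFNGR2 rose in all 3 transfections. Changes are differences of log2(FPKM + 1), on which low genes are understated, averaged over the 3 transfections and tested with limma across all 11845 loci. The IRF1 level under PBS and TNF was 8.62 and 92.8 FPKM in NC, 6.16 and 61.6 in siEZH1, and 11.9 and 58.7 in siUXT. All 3 TNF libraries lay above all 3 PBS libraries, and the TNF level was highest in NC. The NC ratio of TNF to PBS was 10.8, that of siEZH1 10.0 and that of siUXT 4.92. The mean change was 2.87 ± 0.58 (SD, n = 3 transfections), with a limma Benjamini-Hochberg adjusted p of 0.00596, the 17th largest rise of the 11845. With every locus above 0 tested, without the filter at 1 FPKM, the adjusted p in limma was 0.053.

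IRF2, the factor that shares IRF1's sites, was also higher under TNF but did not pass the test. Under PBS and TNF it had 2.67 and 7.05 FPKM in NC, 2.61 and 6.81 in siEZH1, and 2.46 and 5.93 in siUXT. The ratios of TNF to PBS, 2.64, 2.61 and 2.41, were close to each other, and the groups did not overlap. The mean change of 1.08 ± 0.07 (SD, n = 3 transfections) had a limma Benjamini-Hochberg adjusted p of 0.076. It passed in limma when siUXT PBS was left out (change 1.12, adjusted p = 0.0082) or siUXT TNF (adjusted p = 0.0097), with 1 residual degree of freedom, and without the transfection term (adjusted p = 0.028). In both fits without a siUXT library, calls for TNF were also more frequent over all loci. The FPKM ratio of IRF1 to IRF2 was 3.23 in NC PBS and 13.2 in NC TNF, 2.36 and 9.05 in siEZH1, and 4.84 and 9.90 in siUXT, so it was higher under TNF in each transfection.

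The interferon-gamma receptor chains were both higher under TNF, with only IFNGR2 past the threshold. IFNGR2 had PBS and TNF levels of 23.8 and 89.2 FPKM in NC, 18.9 and 85.2 in siEZH1, and 26.4 and 81.7 in siUXT. The TNF libraries lay close together and far above the PBS libraries. Its mean change was 1.86 ± 0.26 (SD, n = 3 transfections; limma, Benjamini-Hochberg adjusted p = 0.00648), the 40th largest rise. IFNGR1, the ligand-binding chain, had PBS and TNF levels of 19.1 and 34.9 FPKM in NC, 19.3 and 46.4 in siEZH1, and 8.45 and 42.9 in siUXT. Here too the groups did not overlap, but the ratio of TNF to PBS differed widely, at 1.83, 2.41 and 5.08 in NC, siEZH1 and siUXT, the last set against the low siUXT PBS value. Its mean change of 1.43 ± 0.71 (SD, n = 3 transfections) had a limma adjusted p of 0.18. Without siUXT PBS the change was 1.03 with a limma adjusted p of 0.0067, and it passed with any other single library or pair left out as well, always with 1 residual degree of freedom. In each of those fits more loci were called for TNF than with all libraries, so a call there was more frequent for any gene. IFNGR1 passed under none of the alternatives that kept all 6 libraries. The FPKM ratio of IFNGR2 to IFNGR1 was 1.25 in NC PBS and 2.55 in NC TNF, and 0.979 and 1.83 in siEZH1, but 3.13 and 1.90 in siUXT, where the order was the opposite.

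The type I interferon receptor chains differed less. IFNAR1 had PBS and TNF levels of 6.62 and 7.72 FPKM in NC, 7.59 and 9.21 in siEZH1, and 3.93 and 8.72 in siUXT. The 3 TNF values were above the 3 PBS values, but NC TNF exceeded siEZH1 PBS by little. Its mean change was 0.48 ± 0.44 (SD, n = 3 transfections; limma, Benjamini-Hochberg adjusted p = 0.999), and 0.22 without siUXT PBS. The IFNAR2 locus was at 20.2 and 23.1 FPKM in NC, 17.7 and 24.0 in siEZH1, and 16.6 and 22.3 in siUXT for PBS and TNF. Its TNF libraries also lay above all PBS libraries, with a mean change of 0.34 ± 0.13 (SD, n = 3 transfections) that did not pass in limma (adjusted p = 0.999).

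None of the Janus kinases passed the test, and their groups overlapped. JAK1, which serves both receptor types, lay between 16.3 FPKM (siUXT PBS) and 23.6 (siEZH1 TNF), with a change of 0.16 ± 0.30 (SD, n = 3 transfections) that was -0.00034 without siUXT PBS. TYK2, the kinase of IFNAR1, had 18.0 FPKM under PBS and 25.6 under TNF in NC, 13.3 and 16.7 in siEZH1, and 16.9 and 19.1 in siUXT. It was higher under TNF within each pair, while NC PBS exceeded siEZH1 TNF. JAK2 was at 1.12 and 1.36 FPKM in NC, at 1.57 and 1.63 in siEZH1, and at 0.318 and 1.41 in siUXT. Its ratio of TNF to PBS, 4.45 in siUXT against 1.21 in NC and 1.04 in siEZH1, thus rested on the siUXT PBS value, and its change was 0.35 with that library and 0.09 without it.

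SOCS3 was the only member with a mean change below 0 in the fit to all libraries. Its PBS and TNF levels were 9.70 and 7.11 FPKM in NC, 7.97 and 5.88 in siEZH1, and 9.40 and 6.45 in siUXT. Every TNF library lay below every PBS library, and the ratios of TNF to PBS, 0.733, 0.738 and 0.685, were similar. The mean change was -0.42 ± 0.05 (SD, n = 3 transfections), with an unadjusted limma p of 0.031 and a Benjamini-Hochberg adjusted p of 0.999, so it did not pass.

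Counted together, 2 of the 10 members were called up and 0 down in limma, where 0.405% of all loci were called up and 0.00844% down; 5 of the 10 had an unadjusted limma p under 0.05 (IFNGR1, IFNGR2, IRF1, IRF2 and SOCS3), as did 3.96% of all loci. Without siUXT PBS, limma called 4 members up (IRF1, IFNGR2, IFNGR1 and IRF2), among 293 loci up. In 6 members all TNF libraries lay above all PBS libraries, against 3.47% of all loci, and in 1 member below, against 3.04%. The median change of the 10 was 0.41, and of all loci 0.01. Without siUXT PBS these medians were 0.35 and -0.0086. At least 2-fold higher under TNF were 3 members in NC (1.96% of loci), 4 in siEZH1 (1.85%) and 6 in siUXT (10.5%). At 1.5-fold the counts were 4 (5.13%), 4 (5.14%) and 6 (20.6%). The members were chosen with earlier results of these data known, so these counts describe the genes and do not test them as a set.

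**Figure D2:**
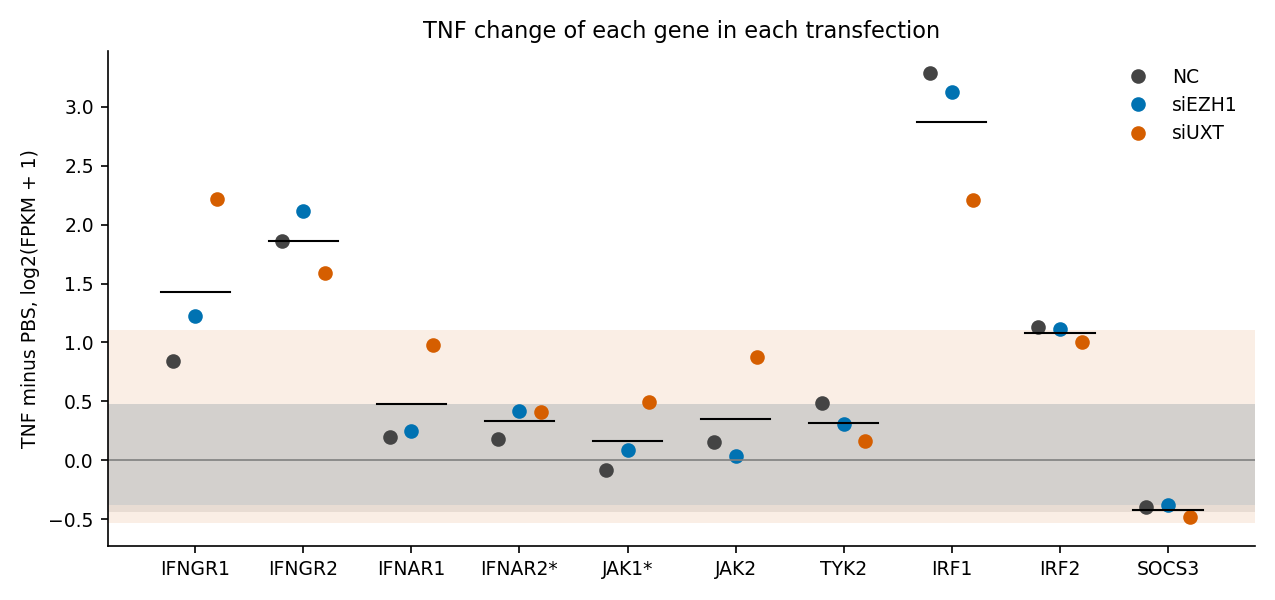
Difference between TNF and PBS on the log2(FPKM + 1) scale for each gene in NC, siEZH1 and siUXT, with black bars for the mean of the 3 and shaded bands from the 5th to the 95th percentile of all 11845 loci in each transfection. The siUXT band is the widest, reaching 1.10 against 0.48 in NC and 0.48 in siEZH1; IRF1 and IFNGR2 lie above all bands in every transfection.

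After siEZH1, IRF1 and TYK2 were lower than in NC under both treatments, as were IFNGR2, SOCS3 and IRF2 by less. IRF1 was at 0.714 of NC under PBS and 0.664 under TNF, and TYK2 at 0.738 and 0.651. Over both treatments the difference was -0.51 (SE 0.29) for IRF1, with a limma Benjamini-Hochberg adjusted p of 0.62, and -0.50 (SE 0.19) for TYK2, with 0.60. Neither passed, and no member did; 0 of 10 were called against 0.0169% of all loci, and 1 member (TYK2) had an unadjusted limma p under 0.05, as did 8.21% of all loci. The calls depended on the siUXT libraries, which share the estimate of the spread: without siUXT PBS, limma's adjusted p was 0.011 for IRF1 and 0.015 for TYK2, and without siUXT TNF 0.013 and 0.014. In those fits, which have 1 residual degree of freedom, 3132 and 3089 loci were called, so a call there was common. IFNGR2 was at 0.795 of NC under PBS and 0.954 under TNF, SOCS3 at 0.822 and 0.827, IRF2 at 0.977 and 0.966 and IFNAR1 at 1.15 and 1.19. No member was at least 1.5-fold lower under PBS (8.29% of loci), and 2 were under TNF (9.1%). At least 1.5-fold higher were 0 members under PBS (4.39%) and 0 under TNF (7.15%).

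After siUXT, 3 receptor and kinase genes were at least 1.5-fold lower than NC in the PBS library, as were 19.8% of all loci. IFNGR1 was at 0.443 of NC PBS, IFNAR1 at 0.594 and JAK2 at 0.283. Under TNF the same genes were at 1.23, 1.13 and 1.04 of NC. IRF1 went the other way, at 1.38 of NC under PBS and 0.632 under TNF, where it was the only member at least 1.5-fold lower (5.18% of loci). IFNGR2 stayed close to NC, at 1.11 and 0.915, as did SOCS3 at 0.969 and 0.907. No member was at least 1.5-fold higher than NC under PBS (7.35%) or TNF (5.57%). In limma 0 of 10 members were called for siUXT against 0.0422% of all loci (0.0253% up and 0.0169% down), with 0 members at an unadjusted p under 0.05 (3.65% of loci). Without siUXT TNF, so that siUXT PBS alone stood for siUXT, limma called IFNGR1 (-0.99, adjusted p = 0.0055) and IFNAR1 (-0.61, adjusted p = 0.023) down and IRF1 up (0.39, adjusted p = 0.044), among 3604 loci called. Without siUXT PBS, none of the 10 was called in limma, and IRF1 was at -0.61 (adjusted p = 0.057). Both knockdowns were set against the same NC libraries.

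**Figure D3:**
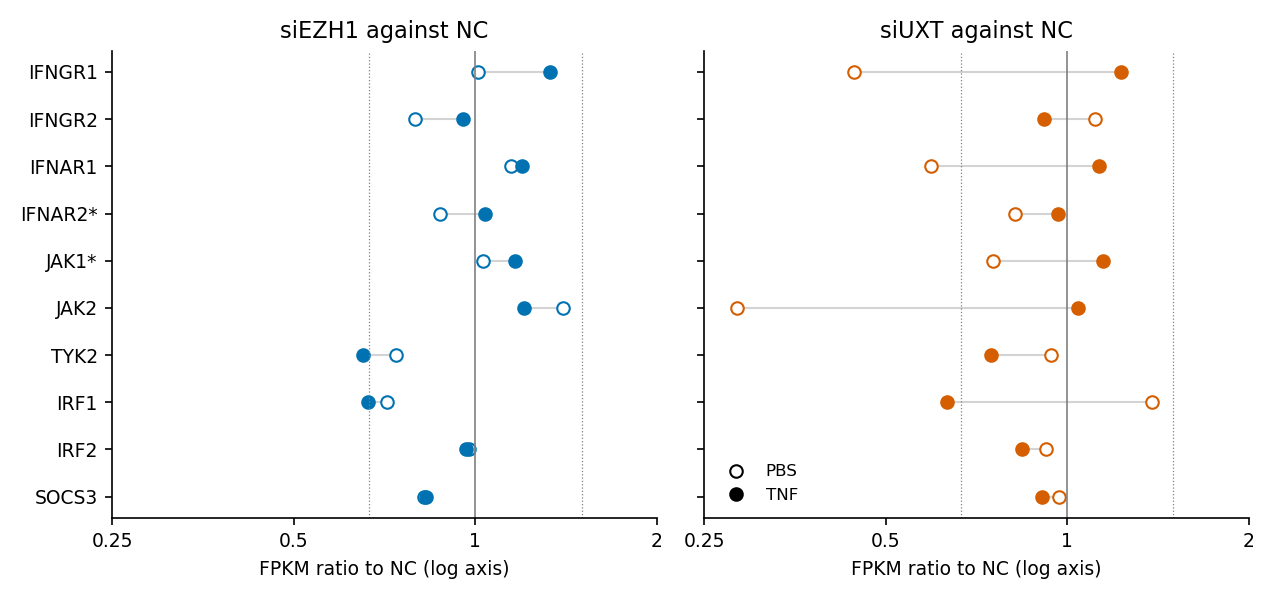
Ratio of FPKM in siEZH1 (left) and siUXT (right) to the NC library of the same treatment, on a log axis, with open circles for PBS and filled circles for TNF; dotted lines mark 1.5-fold either way. In siUXT the PBS and TNF values of IFNGR1, IFNAR1, JAK2 and IRF1 lie on opposite sides of 1, and JAK2 reaches 0.283 under PBS. Those of JAK1 (0.754 and 1.15) and IFNGR2 (1.11 and 0.915) do as well, within the dotted lines.

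The size of the TNF response itself differed between transfections for some members, which could not be tested with 1 library per condition. NC had an IRF1 change of 3.29, siEZH1 of 3.13 and siUXT of 2.21, a difference between siUXT and NC of -1.08. Among the 48 loci that limma called up under TNF, the difference between siUXT and NC had a median of -0.38. It ran from -1.03 at the 10th to 0.17 at the 90th percentile, and 38 of 48 had a smaller response than in NC. Over all loci tested the median was -0.05. IRF1 is itself among the 48. The fit counts a differing response as error, so the call favours loci whose responses were alike, which narrows this range. For siEZH1 the median of the 48 was -0.10, with 30 of 48 smaller, and IRF1 was at -0.16. The median of all loci was 0.03. IFNGR2, in contrast, differed from NC by 0.25 in siEZH1 and -0.27 in siUXT. As a level, IRF1 in both knockdown TNF libraries was below NC TNF, and so were 36 of the 48 loci. These comparisons share the NC TNF library, and the counts out of 48 were not made over all loci. The response of IFNGR1 was larger than in NC in both knockdowns, by 0.38 and 1.38, and that of IRF2 was nearly the same, differing by -0.02 and -0.13.

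Elsewhere in the pathway, of the loci tested only ICAM1 rose past the threshold. The interferon genes themselves were near 0: IFNG, IFNB1, IFNA2, IFNK and IFNL2 were listed at 0 in all 6 libraries, and IFNE, the highest of 9, reached 0.451 FPKM. A value of 0 can be a failed estimate in such tables. Of the 7 tested loci among STATs and JAK3, 0 were called in limma, and 0 had an unadjusted p under 0.05. Of all loci, 0.414% were called for TNF in either direction and 3.96% had such a p, so 0 calls in a list this short says little about it. STAT6, the factor of interleukin-4 signalling, had a change of 0.15 (0.32 without siUXT PBS). JAK3 was at -0.18 and STAT4 at -0.08, and without that library at -0.0081 and -0.23. The list's median was 0.06.

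Other receptor chains that signal through Janus kinases had 0 of 12 loci called in limma and 3 with an unadjusted p under 0.05, with a median of 0.17. Of the 12, 1 is the locus shared by IL10RB and IFNAR2. The shares of all loci were 0.414% called and 3.96% with such a p. IL15RA, which presents interleukin-15, had a change of 0.71, with PBS and TNF levels of 4.87 and 5.67 FPKM in NC, 2.21 and 4.96 in siEZH1 and 2.70 and 6.59 in siUXT. IL6ST, the gp130 chain, was at 0.51, and at 0.21 without siUXT PBS, where its level was 2.07 FPKM. IL4R was at 0.50 and IL27RA at 0.48. Among other IRFs and IRF2-binding proteins, 0 of 8 were called in limma (0.414% of all loci), 1 had an unadjusted p under 0.05 (3.96% of all loci) and the median was 0.20. IRF2BPL had a change of 0.54, IRF5 of 0.42 (0.64 without siUXT PBS) and IRF7 of 0.36.

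The other inhibitors of JAK-STAT signalling had a median of 0.00, with 0 of 16 called in limma (0.414% of all loci) and 1 with an unadjusted p under 0.05 (3.96% of all loci). SOCS2, the one with that p, had a change of 0.65, or 0.38 without siUXT PBS, and was above PBS in all TNF libraries. SOCS1, the main inhibitor of interferon-gamma signalling, went from 4.83 to 9.62 FPKM in NC and from 2.70 to 5.91 in siEZH1, but from 5.73 to 5.21 in siUXT; its change was 0.55, and 0.88 without siUXT PBS. CISH was at -0.32, and at -0.14 without that library. SOCS4 was at 0.25 with it and at -0.14 without it, with a change of 1.04 in siUXT against -0.09 in NC and -0.19 in siEZH1. Without siUXT PBS the median of the list was -0.05.

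Genes known to respond to interferon-gamma or IRF1 had 1 of 11 tested loci called up, 3 with an unadjusted limma p under 0.05, and a median of 0.18. Of all loci, 0.405% were called up and 3.96% had such a p, and their median was 0.01. ICAM1, an adhesion molecule that NF-kB also induces, had a change of 3.73 ± 0.58 (SD, n = 3 transfections; limma, Benjamini-Hochberg adjusted p = 0.0020). CD274, which encodes the checkpoint ligand PD-L1, had PBS and TNF levels of 0.595 and 3.18 FPKM in NC, 0.729 and 3.01 in siEZH1, and 0.603 and 2.38 in siUXT. Its TNF values lay well above its PBS values, with a change of 1.23 and a limma adjusted p of 0.059, so it did not pass. B2M, the light chain of MHC class I, was at 0.33; the PSMB10 and TAP2 loci, which share their values with CTRL and HLA-DOB, were at 0.20 and 0.19, the TAP2 locus at 0.29 without siUXT PBS. Of the members of this list with a mean under 1 FPKM, GBP3 reached 1.22 FPKM (NC TNF), CXCL10 1.09 (siEZH1 TNF) and GBP1 0.129 (siUXT TNF). CXCL10, CXCL11, GBP2, GBP3 and CIITA were higher in every TNF library than in every PBS library. GBP1, GBP4, GBP5, TAPBP, IDO1 and CASP1 were not. Values this low were not tested, and the share of such low loci that separate in this way was not counted. Among the loci tested it was 3.47%. CXCL11, for example, was at 0 in every PBS library and reached 0.256 FPKM at most. GBP2 shares its values with GBP7, TAPBP with ZBTB22 and CASP1 with CARD16. TAP1, PSMB8, PSMB9 and CXCL9 were listed at 0 throughout, which for the proteasome and transporter genes can be a failed estimate.

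**Figure D4:**
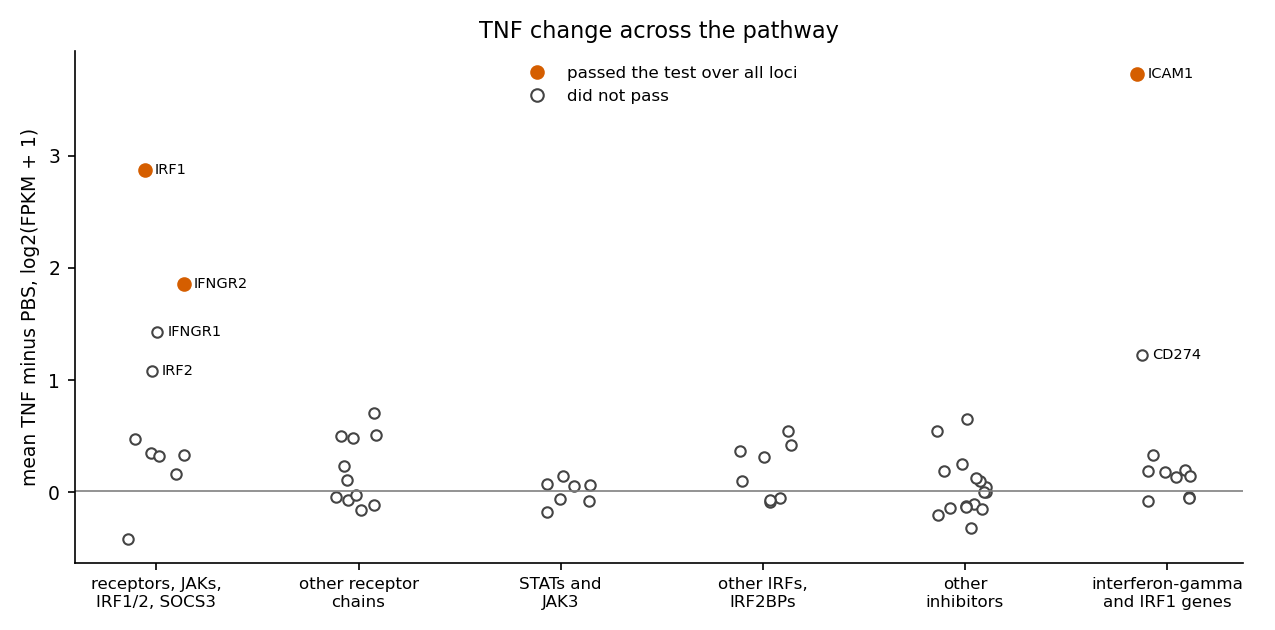
Mean difference between TNF and PBS on the log2(FPKM + 1) scale for the 10 genes and for the tested loci of 5 pathway lists (horizontal scatter within a list has no meaning; the locus shared by IL10RB and IFNAR2 is drawn once, in the first column). Orange points passed limma's test over all loci: IRF1, IFNGR2 and ICAM1. The grey line is the median of all loci, 0.01, which was -0.0086 without siUXT PBS.

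IFNGR2 was the only gene tested in its stretch of chromosome 21 to pass for TNF, where IFNAR2, IL10RB, IFNAR1 and IFNGR2 are consecutive protein-coding genes apart from a read-through entry. Beside IFNGR2 at 1.86, IFNAR1 was at 0.48, TMEM50B, the next gene on the other side, at 0.15, GART at -0.04, SON at 0.11, ITSN1 at -0.08 and the locus of DONSON and CRYZL1 at -0.07. Neither IFNAR1 nor any of the 6 other loci tested there (the IL10RB locus among them) passed in limma, where 0.414% of all loci did. The values of the DONSON and CRYZL1 locus are also those of ATP5O and AK057604, so they cannot be given to any of these alone. DNAJC28 was below the filter. Without siUXT PBS, TMEM50B was at -0.08, SON at 0.05, ITSN1 at -0.04 and the locus of DONSON at -0.12. Around IRF1 on chromosome 5, SLC22A5, a carnitine transporter gene, was at 0.10, P4HA2 at 0.04, RAD50 at 0.03 and KIF3A at 0.10. Without siUXT PBS these were at 0.37 (SLC22A5), 0.15 (P4HA2), -0.16 (RAD50) and -0.20 (KIF3A). C5orf56, a long non-coding transcript also named IRF1-AS1, had PBS and TNF levels of 2.09 and 4.21 FPKM in NC, 1.46 and 2.60 in siEZH1, and 1.07 and 2.29 in siUXT. All its TNF libraries lay above all its PBS libraries, with a change of 0.66, but did not pass in limma (Benjamini-Hochberg adjusted p = 0.44), and whether counting used the strand is not given.

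Over the 6 libraries, the protein-coding genes with the pattern most like IRF1, among 10061 compared, were ICAM1 (Pearson r = 0.998 of log2(FPKM + 1)), RELB, an NF-kB subunit (0.996), IRAK2 (0.996) and NUAK2 (0.995). For IFNGR2 they were RELB (0.998), IRAK2 (0.995), IRF1 itself (0.994) and SDC4 (0.993). These correlations rest on 6 libraries that share 2 treatments and describe the values only. SOCS3 was most like DUSP18 (0.992), OSR2 (0.990), EEPD1 (0.984) and RASGEF1A (0.979), of which DUSP18 had a mean change of -0.54 and OSR2 of -0.49.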

How the data were processed

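Poly(A) RNA-seq of 6 HCT116 libraries was deposited by the authors as an FPKM value for each gene symbol. Among the tools that the submitters' processing notes name are FastQC, cutadapt, TopHat2, Bowtie, SICER and, as build, hg19; versions, roles, the annotation and the program behind the values are not stated in any source used here. Where several symbols held equal values in every library they were treated as 1 locus, which left 17642 loci above 0, and 11845 with a mean of at least 1 FPKM were tested. Values were analysed as log2(FPKM + 1) with limma 3.58.1 in R 4.3.3 (lmFit, eBayes with trend; two-sided) in an additive model of transfection and treatment, which leaves 2 residual degrees of freedom, with Benjamini-Hochberg adjustment over all loci and a threshold of 0.05. The 3 transfections serve as repeats of the TNF response and the 2 treatments as repeats of each knockdown, so differences between them count as error. The labels do not say whether libraries came from separate cultures, so p-values measure only the spread between these libraries. Single pairs have no test.

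Relative depth was taken from steps of values under 0.4 FPKM (tolerance 2%). The script was tested on simulated data. Genes named beyond the 10 members were those called in a fixed pathway list, its 4 largest other TNF changes, all detected neighbours of IFNGR2 and IRF1, and the 4 most alike genes of IRF1, IFNGR2 and SOCS3; some genes that the rule covers are not reported here, and genes with a mean under 1 FPKM were named besides, after their values were seen. Members and lists were chosen with earlier results of these data known. Alternatives were pseudocounts of 0.1 and 5, no filter or a mean of 5 FPKM, size factors, unmerged symbols, eBayes without trend, fewer model terms and each library or pair left out. Python 3.11.15 with pandas 2.3.3 and matplotlib 3.10.9 did the rest.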

Additional observations from a re-analysis of the deposited data

Results flagged for a closer look

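For 4 members the siUXT difference from NC ran in opposite directions under PBS and TNF, and reached 1.5-fold in 1 of the treatments. The FPKM ratio to NC was 0.443 under PBS and 1.23 under TNF for IFNGR1, 0.594 and 1.13 for IFNAR1, and 0.283 and 1.04 for JAK2. For IRF1 it was 1.38 under PBS and 0.632 under TNF. The share of all loci with such a reversal was not counted. Of all loci, 19.8% were at least 1.5-fold lower than NC in siUXT PBS and 5.18% in siUXT TNF. Each condition had 1 library, so the differences of the 4 members were not tested, and the part that the siUXT PBS library plays in them was not tested.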

How the results depend on the processing

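Each condition had 1 library, which leaves 2 residual degrees of freedom. JAK2, the lowest member, was at 0.318 to 1.63 FPKM, and the part of depth was not tested. IFNGR2 was called up for TNF under all 17 alternatives (changes 1.70 to 1.99) and IRF1 under 16 (2.44 to 3.21), losing the call with no filter. With no filter, limma called 23 loci and 1 member for TNF, against 49 and 2. With a mean of at least 5 FPKM, which drops IRF2 and JAK2, 1 locus was called for siEZH1 and 1 for siUXT, against 2 and 5. With a pseudocount of 0.1, 0 loci were called for siUXT in limma (419 at an unadjusted p under 0.05). Leaving out 1 library or pair gave 126 to 328 loci and 3 to 4 members for TNF, 42 to 3132 loci and 0 to 2 members for siEZH1, and 46 to 3604 loci and 0 to 3 members for siUXT; fewer samples left 1 residual degree of freedom, and the largest counts came without a siUXT library. A lone library left in a group was assumed to vary like the others.

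Signs changed only for values that were not called with all libraries, in these leave-one-out ranges; 1 of them, the siUXT difference of IRF1, was -0.11 with all libraries and was called up at 0.39 without siUXT TNF (limma adjusted p = 0.044). The TNF change of JAK1 ran from -0.00034 to 0.29. The siEZH1 difference ran from -0.0093 to 0.41 for IFNAR1, -0.18 to 0.047 for IFNAR2, -0.23 to 0.65 for IFNGR1, -0.38 to 0.00095 for IFNGR2, -0.072 to 0.0033 for IRF2, -0.063 to 0.31 for JAK1 and -0.022 to 0.46 for JAK2. The siUXT difference ran from -0.61 to 0.14 for IFNAR1, -0.99 to 0.19 for IFNGR1, -0.19 to 0.21 for IFNGR2, -0.61 to 0.39 for IRF1, -0.34 to 0.15 for JAK1 and -0.72 to 0.064 for JAK2. With size factors the siUXT difference of IFNGR2 was -0.026. The cause was not tested. The fit compares TNF with PBS within each transfection; without the transfection term, limma called 54 loci and 3 members for TNF. The labels carry no replicate numbers to pair by.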
